A study of Drosophila melanogaster with 6 samples.

Results

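The genes described here encode the machinery of chemical synapses and the general markers of neurons: 38 genes chosen by name for roles in vesicle fusion, vesicle recycling, the active zone, synaptic adhesion and neuronal identity. All 38 are among the 17753 genes of the deposited count table, and 34 of them held enough reads to be tested. RNA of adult Drosophila melanogaster heads was sequenced after ribosomal RNA depletion, with 3 libraries of a Kdm3 knockout (Kdm3 KO), a loss of a JmjC-domain histone demethylase, and 3 libraries of the white-eyed control stock wBerlin. Each library came from 50 heads of flies aged 2 to 7 days after eclosion, kept at 25 °C and 70% humidity on cornmeal agar. The labels state neither the construction of the Kdm3 allele nor the sex of the flies, so other differences between the stocks cannot be told apart from the loss of Kdm3. In a whole head, fewer neurons and less RNA per neuron cannot be told apart either. The labels call the libraries biological replicates but do not say whether they came from separate cultures, so p-values measure only the spread between these libraries.

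A synaptic vesicle fuses when the vesicle SNARE nSyb zippers with the plasma membrane SNAREs Syx1A and Snap25, under control of Rop, complexin and the calcium sensor Syt1. The active zone, built in flies around Bruchpilot (brp), holds vesicles close to the calcium channel cacophony (cac), and dynamin, AP180, endophilin and synaptojanin retrieve the membrane afterwards. The neurexin Nrx-1 and the neuroligins join the presynaptic to the postsynaptic side.

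Loss of Kdm3 was accompanied by no called change in any of these genes. Of the 34 tested genes 0 were higher and 0 lower in Kdm3 KO by edgeR's quasi-likelihood test at an adjusted p under 0.05, where 2.15% of all 14069 tested genes were higher and 0.917% lower. DESeq2 and limma voom called 0 of the 34 as well, against 6.51% and 2.77% of all tested genes. At an unadjusted p under 0.05, edgeR gave 1 of the 34 as lower, fne, and 0 as higher, against 7.51% and 7.14% of all tested genes. The log2 fold changes (Kdm3 KO over wBerlin) ran from −0.29 for fne to 0.19 for Snap25, with 13 positive and 21 negative. Their median was −0.046, beside 0.036 over all tested genes. The targeted gene itself fell to 3.86, 0.642 and 0.710 CPM (counts scaled to library size with TMM factors) in Kdm3 KO replicates 1, 2 and 3, against 32.5, 30.1 and 28.7 CPM in wBerlin replicates 1, 2 and 3.

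A test that is not passed does not show equal levels, so the interval of each difference matters. The 95% intervals of the 34 fold changes, taken from the edgeR fit without adjustment for their number, lay between 0.685-fold and 1.37-fold. With all libraries, each of the 34 intervals stayed within 1.5-fold in either direction. Intervals of Appl and fne passed 1.5-fold on the lower side without Kdm3 KO replicates 1 or 3 or wBerlin replicate 2, and those of Rbp, Appl, fne and para without wBerlin replicate 3, with a lowest bound of 0.640-fold over these 4 fits. The distance from the estimate to the end of its interval was 0.26 on the log2 scale in the median gene of the 34, and 0.33 in the median of all tested genes. The 170 genes called by edgeR that were at least as abundant as the least abundant of the 34 had absolute log2 fold changes of 0.38 or more. No smaller difference was called in this fit for genes of such abundance, but 0.38 is not a limit of detection. The adhesion gene sdk, described below, was called in 2 of 16 alternative fits. Its log2 fold changes over these fits lay between −0.32 and −0.20.

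**Figure D1:**
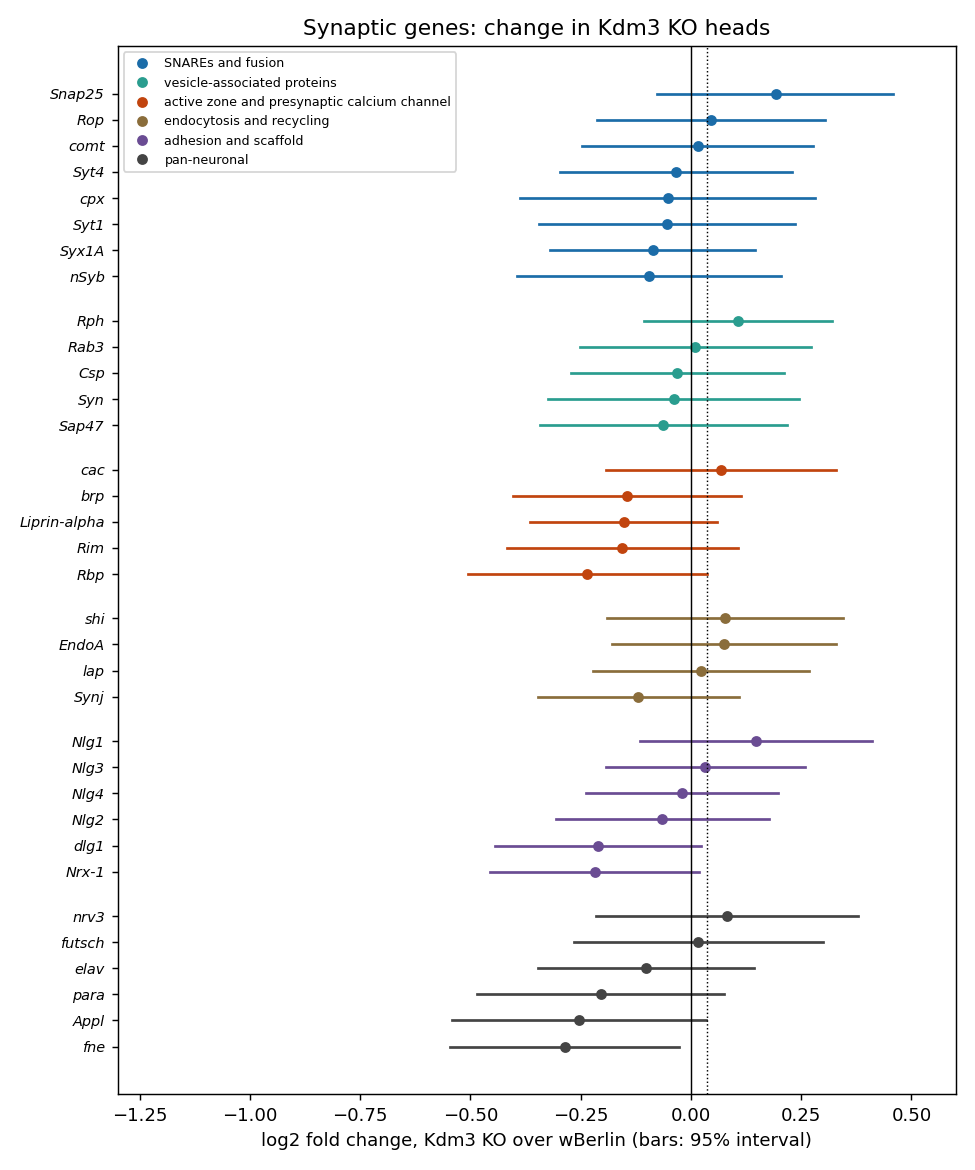
Log2 fold change of each tested gene (x axis, Kdm3 KO over wBerlin), grouped by role, with bars for the 95% interval from the edgeR fit; the solid line is 0 and the dotted line the median of all tested genes, 0.036. All intervals but that of fne reach 0, and none goes below −0.55 or above 0.46.

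Of the listed genes 4 carried no reads in any library, and their 0 is not a measured level. The genes unc-13 and Syt7, for the priming factor Unc-13 and a synaptotagmin, lie on chromosome 4 (BDGP6, 867824 to 912331 and 278685 to 306481). All 111 listed genes of chromosome 4 were at 0 in every library. The genes stnA and stnB, for the endocytic Stoned proteins, lie at 22980722 to 23004648 on chromosome X, where 2509 of 2653 listed genes held reads. Both are annotated on the same transcripts, so 100% of the 8332 exonic bases of each are shared with the other. The treatment of reads that fall on more than 1 gene is not stated in the labels or notes. A count of 0 allows up to 3 counts, or 0.108 to 0.138 CPM per library, by counting error alone, but for these genes the limit says nothing about expression.

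None of the core fusion genes passed the test, and the libraries of both genotypes overlapped in each of them. Of the 10 fusion genes 8 were tested, and their log2 fold changes ran from −0.095 to 0.19 with a median of −0.043. The vesicle SNARE gene nSyb (chromosome 3L, 1630348 to 1637752) was at 822, 686 and 779 CPM in Kdm3 KO replicates 1, 2 and 3 and at 942, 776 and 726 CPM in wBerlin replicates 1, 2 and 3. Only wBerlin replicate 1 stood above the range of the knockout libraries. Its log2 fold change was −0.095 (95% interval −0.40 to 0.20, edgeR adjusted p = 0.813). The calcium sensor gene Syt1 (2L, 2772327 to 2799979) was at 1188, 1045 and 1171 CPM in Kdm3 KO and at 1345, 1111 and 1078 CPM in wBerlin. These ranges overlap, with a log2 fold change of −0.054 (interval −0.34 to 0.23).

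Snap25 (3L, 24074180 to 24299205), one of the SNAREs of the plasma membrane, had the largest positive fold change of the 34. It was at 607, 526 and 591 CPM in Kdm3 KO and at 536, 441 and 532 CPM in wBerlin. Kdm3 KO replicate 2 lay below the 2 higher wBerlin libraries, so the groups overlap. The log2 fold change was 0.19 (interval −0.076 to 0.46, edgeR adjusted p = 0.544). Its partner Syx1A, the syntaxin of the plasma membrane, averaged 247 ± 15.7 CPM in Kdm3 KO and 262 ± 21.9 CPM in wBerlin (SD, n = 3 each). An exon stretch of 447 bases, 10.7% of Syx1A, is also annotated to the translation factor gene eIF4EHP, and how reads there were counted is not stated. The fully shared genes stnA and stnB were at 0, so such reads may be missing from the level of Syx1A.

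Of the SNARE regulators, complexin (cpx), which clamps and primes the SNARE complex, was among the most abundant with 2240 ± 204 CPM in Kdm3 KO and 2325 ± 364 CPM in wBerlin (SD, n = 3 each). Rop, the Sec1-family partner of syntaxin, had a log2 fold change of 0.046, and comt, the ATPase that takes SNARE complexes apart, of 0.015. Syt4, a synaptotagmin linked in larvae to retrograde signalling, stood at −0.034. Each of the intervals of these 4 genes includes 0.

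The 5 genes of vesicle-associated proteins were all tested, with a median log2 fold change of −0.031. Synapsin (Syn), which tethers vesicles to each other, had −0.039, the small GTPase Rab3 0.010, the chaperone Csp −0.031 and Sap47, a vesicle-associated protein abundant at fly synapses, −0.063. The exception in size was Rph, for the Rab effector rabphilin, at 44.9, 41.6 and 46.2 CPM in Kdm3 KO and 44.8, 39.4 and 39.1 CPM in wBerlin. It had the third largest positive value, 0.11 (interval −0.11 to 0.32, edgeR adjusted p = 0.694), and its groups overlap through wBerlin replicate 1.

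Active zone scaffold genes all had negative log2 fold changes, and none passed the test. Over the 5 genes with cac the median was −0.15, beside 0.036 over all tested genes. The central scaffold gene brp (2R, 9503765 to 9541565) was at 507, 529 and 574 CPM in Kdm3 KO and at 627, 627 and 525 CPM in wBerlin. The 2 higher wBerlin libraries lay above all knockout libraries and the third lay among them (log2 fold change −0.14, interval −0.40 to 0.11, edgeR adjusted p = 0.655). Rbp (3R, 15374635 to 15402543), the RIM-binding protein that links the scaffold to calcium channels, was at 179, 169 and 182 CPM in Kdm3 KO and at 238, 211 and 174 CPM in wBerlin. Its knockout libraries were close together, and wBerlin replicate 3 fell among them (−0.23, interval −0.51 to 0.037, edgeR adjusted p = 0.431). Without wBerlin replicate 3 the values of brp, Rim and Rbp were −0.27, −0.29 and −0.39 (edgeR adjusted p 0.223, 0.200 and 0.0677). With wBerlin replicate 1 and Kdm3 KO replicate 2 both left out they were −0.093, −0.059 and −0.095.

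Liprin-alpha (2L, 6723903 to 6732766), a scaffold that acts early in active zone assembly, was at 144, 127 and 149 CPM in Kdm3 KO and at 160, 152 and 154 CPM in wBerlin. All knockout libraries were below all control libraries, by a small margin. The log2 fold change was −0.15 (interval −0.36 to 0.059, edgeR adjusted p = 0.543). Without Kdm3 KO replicate 2 it was −0.082. Rim, which couples vesicles to channels, had −0.16. The calcium channel gene cac (X, 11931280 to 11985087) was the only one of the 5 with a positive value, 0.068 (interval −0.19 to 0.33), at 468, 476 and 468 CPM in Kdm3 KO and 513, 432 and 401 CPM in wBerlin.

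The endocytosis genes were tested for 4 of 6 members, with log2 fold changes from −0.12 to 0.077 and a median of 0.049. Dynamin, shi, which pinches vesicles off the membrane, averaged 1010.0 ± 76.9 CPM in Kdm3 KO and 957 ± 80.2 CPM in wBerlin (SD, n = 3 each). Endophilin (EndoA) and the clathrin adaptor lap, the fly AP180, had 0.075 and 0.023. The lipid phosphatase gene Synj, for synaptojanin, had −0.12 (interval −0.35 to 0.11). The ranges of the 2 genotypes overlap in each of these 4 genes.

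**Figure D2:**
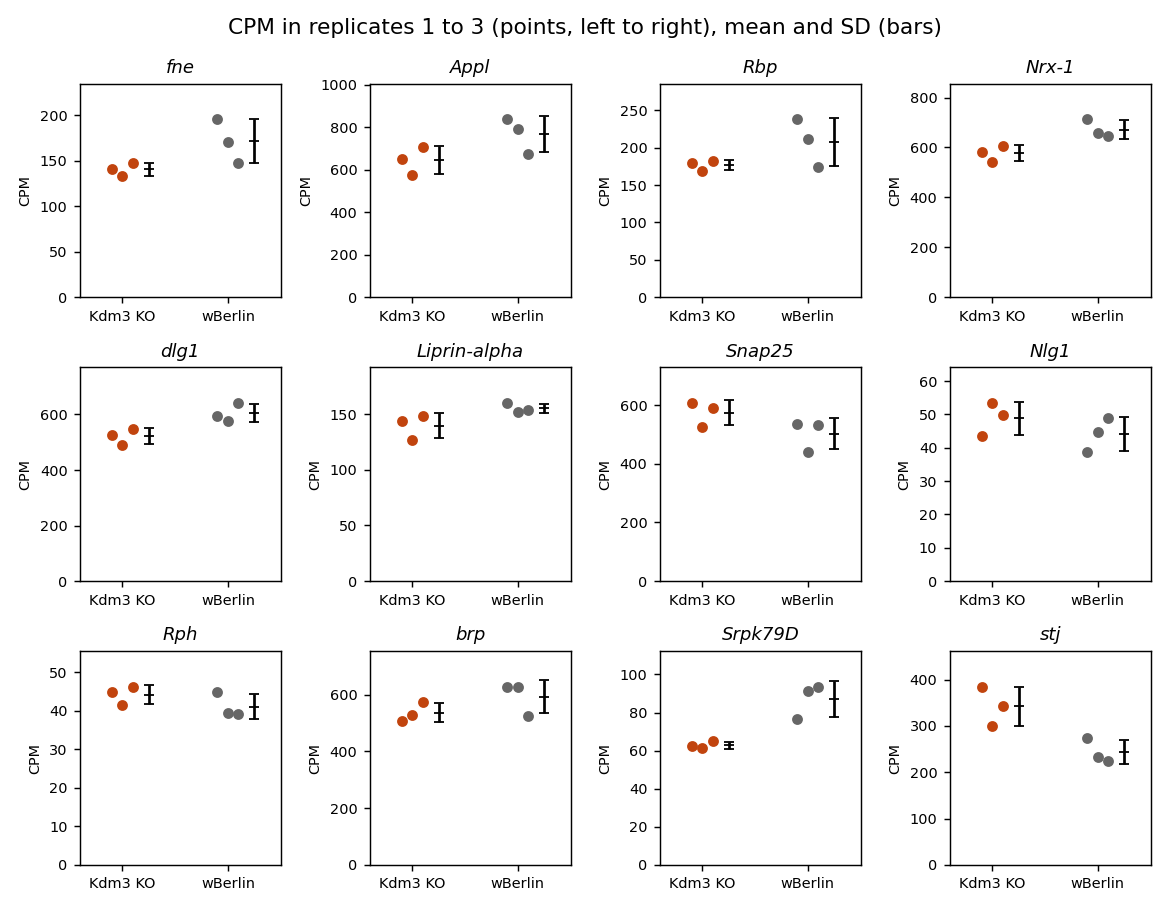
CPM (y axis, from 0) of 10 synaptic genes and of Srpk79D and stj in the libraries of Kdm3 KO (left) and wBerlin (right); points are replicates 1, 2 and 3 from left to right, and bars the mean and SD. The groups do not overlap for Nrx-1, dlg1, Liprin-alpha, Srpk79D and stj; of these, Srpk79D alone passed the test.

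None of the adhesion genes passed the test. Every knockout library lay below every control library for the neurexin Nrx-1 and the scaffold dlg1, and for none of the neuroligins. Over the 34 genes such separation was no more frequent than over all tested genes. Nrx-1 (3R, 22468512 to 22486969), the presynaptic partner of the neuroligins, was at 584, 543 and 606 CPM in Kdm3 KO and at 713, 658 and 645 CPM in wBerlin. Its log2 fold change was −0.22 (interval −0.46 to 0.018, edgeR adjusted p = 0.391). The gene dlg1 (X, 11369665 to 11409776), for the MAGUK scaffold Discs large, was at 527, 492 and 548 CPM in Kdm3 KO and at 595, 578 and 641 CPM in wBerlin (−0.21, interval −0.45 to 0.023, edgeR adjusted p = 0.401). With Liprin-alpha these are the 3 of 34 genes whose knockout libraries all lay below the control libraries, and 0 of 34 lay all above, where 9.33% and 9.35% of all tested genes did.

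The 4 neuroligin genes ranged from −0.065 to 0.15. Nlg1 (3R, 7658247 to 7694874), known from the larval neuromuscular junction, had the second largest positive value of the 34, at 43.5, 53.4 and 49.7 CPM in Kdm3 KO and 38.7, 44.7 and 49.1 CPM in wBerlin. These ranges overlap widely (0.15, interval −0.11 to 0.41, edgeR adjusted p = 0.653). Nlg2, Nlg3 and Nlg4 had −0.065, 0.033 and −0.021.

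None of the 6 pan-neuronal genes passed the test, and their median was −0.15, with 4 negative and 2 positive values. The most negative was fne (X, 12917477 to 12950417), an RNA-binding protein of the ELAV family found in neurons. It was at 141, 133 and 148 CPM in Kdm3 KO and at 196, 171 and 147 CPM in wBerlin. Only wBerlin replicate 3 reached the knockout range, and it did so by a narrow margin. The log2 fold change was −0.29 (interval −0.55 to −0.027, edgeR adjusted p = 0.282). Without wBerlin replicate 3 the call of fne was made, at −0.43 (edgeR adjusted p = 0.0488), as 1 of 34 genes where 1.1% of all tested genes were lower; over all 16 alternatives its adjusted p ran from 0.0488 to 0.511.

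Appl (X, 530501 to 579044), the fly relative of the amyloid precursor protein, was at 651, 574 and 708 CPM in Kdm3 KO and at 837, 792 and 675 CPM in wBerlin. Kdm3 KO replicate 3 and wBerlin replicate 3 crossed, so the groups overlap (−0.25, interval −0.54 to 0.035, edgeR adjusted p = 0.420). The sodium channel gene para had −0.20 (interval −0.48 to 0.075). The neuronal marker elav (X, 509235 to 523226), the founder of the ELAV family, had −0.10 at 269, 255 and 280 CPM in Kdm3 KO and 326, 269 and 269 CPM in wBerlin. Of the exonic bases of elav 27.9% are also annotated to the noncoding RNA lncRNA:enrr. The value of elav may therefore include that RNA or may lack the reads that fall on the shared bases. The microtubule-associated futsch and the sodium pump subunit nrv3 had 0.017 and 0.082.

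The 34 genes differed between libraries of 1 genotype in a shared direction. Within wBerlin, replicate 1 was the highest library for 32 of 34 genes, against 35.2% of all tested genes. Within Kdm3 KO, replicate 2 was the lowest for 27 of 34, against 48.2% of all tested genes. Summed over the 34 genes, the level was 19960, 18300 and 20040 CPM in Kdm3 KO replicates 1, 2 and 3 and 22110, 19230 and 18490 CPM in wBerlin replicates 1, 2 and 3. The coefficient of variation between replicates was 6.82% in Kdm3 KO and 10.7% in wBerlin for the median of the 34, and 13.1% and 10.1% for the median of all tested genes. The median log2 fold change of the 34 was −0.067, 0.015 and −0.062 without Kdm3 KO replicates 1, 2 or 3 and −0.006, −0.13 and −0.14 without wBerlin replicates 1, 2 or 3. With Kdm3 KO replicate 2 and wBerlin replicate 1 both left out it was 0.094, and 0 of the 34 were called. A rise was fixed by that choice, since these libraries were the lowest and the highest of their genotypes for most of the 34.

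**Figure D3:**
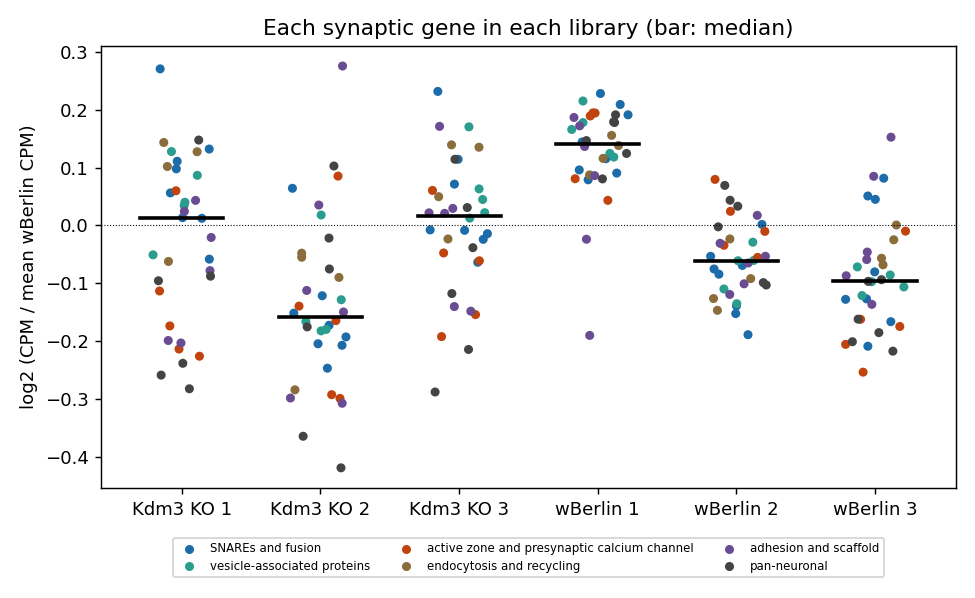
Each point is 1 of the 34 tested genes in 1 library, as log2 of its CPM over its mean CPM in wBerlin (y axis), with the median as a bar; colours give the roles. The medians are 0.012, −0.16 and 0.017 in Kdm3 KO replicates 1, 2 and 3 and 0.14, −0.061 and −0.096 in wBerlin replicates 1, 2 and 3.

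Marker sums of other cell types of the head also differed between the same libraries. The calls among these markers stand beside 2.15% higher and 0.917% lower over all tested genes. The 12 muscle markers summed to 18690, 27780 and 24560 CPM in Kdm3 KO replicates 1, 2 and 3 and 23740, 34280 and 42220 CPM in wBerlin replicates 1, 2 and 3, with 0 higher and 1 lower by edgeR. Their log2 fold changes were negative for 9 and positive for 3, Act88F, TpnC4 and fln. These 3 stood apart in Kdm3 KO replicate 2, at 1276, 87.8 and 14.5 CPM. In Kdm3 KO replicates 1 and 3 Act88F was at 24.2 and 53.2 CPM, TpnC4 at 0.795 and 1.02, and fln at 0.914 and 0.799. The 9 fat body markers tested of 10 summed to 25380, 19550 and 23710 CPM in Kdm3 KO and 15000, 13140 and 9107 CPM in wBerlin. Of them 2 were higher, Yp3 (log2 fold change 1.18) and fit (1.86), and 1 lower, to (−0.79). Most of each sum came from the yolk protein genes, with Yp1, Yp2 and Yp3 at 3192, 7640 and 11630 CPM in Kdm3 KO replicate 1. The uncalled Yp1, Yp2, Obp99b, Npc2h, FASN1 and Lsp2 had 0.83, 0.81, 1.36, 0.40, 0.25 and −0.10. The sex of the flies is not stated, and its part in these values was not tested. The 9 glial markers tested of 10, with repo at 61.8 to 80.6 CPM, summed to 3607 to 4458 CPM in Kdm3 KO and 3522 to 3892 CPM in wBerlin, with 0 called. Their log2 fold changes were positive for 9 and negative for 0, with a median of 0.11, where 43.6% of all tested genes were negative. The largest was that of alrm, 0.49 (edgeR adjusted p = 0.0781). The 10 photoreceptor markers summed to 30240 to 40510 CPM in Kdm3 KO and 34060 to 47680 CPM in wBerlin, with 0 called, and were highest in wBerlin replicate 1 and lowest in Kdm3 KO replicate 2, like the synaptic genes. Of 10 hemocyte markers 1 was higher, and the sums were 1481 to 1921 CPM in Kdm3 KO and 1571 to 1702 CPM in wBerlin. Of 10 gut markers 7 were tested and 1 was higher, and Kdm3 KO replicate 2 held 100.2 CPM of them, against 13.4 to 21.3 CPM in the other 5 libraries. The untested alphaTry and betaTry had 411 and 241 counts in Kdm3 KO replicate 2. In the other 5 libraries they had 3 to 11 and 5 to 11 counts. The glial marker Gat and the fat body marker apolpp, on chromosome 4, were listed at 0. The part of these other cell types in the levels of the synaptic genes was not tested.

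Per length of exon, the synaptic genes spanned a wide range, and 34 of 34 were above the middle of all tested genes. Over all 6 libraries nrv3 led with 504 ± 43.7 CPM per kb (SD, n = 6), and no library of it overlapped the next gene. Snap25, cpx, nSyb, Sap47, Rop, shi and Syt1 followed at 236 to 161 CPM per kb, each overlapping its neighbour in that order. The partner of Snap25 and nSyb in the SNARE complex, Syx1A, was lower, at 61.1 ± 4.56 CPM per kb. Reads on the 10.7% of its exonic bases shared with eIF4EHP may be missing from that level. Active zone and calcium channel genes came at 42.2 CPM per kb (brp), 38.6 (cac), 24.7 (Rim), 23.8 (Liprin-alpha) and 21.1 (Rbp), and each of their ranges overlaps that of the next gene in the full order. The neuroligins stood near the end, at 20.8 for Nlg2, 19.3 for Nlg4, 15.9 for Nlg3 and 7.74 CPM per kb for Nlg1, with Rph at 10.7. The percentile of the level per kb among all tested genes ran from 51.8 for Nlg1 to 98.9 for nrv3. The length is that of all annotated exons joined, which understates the level of genes with many isoforms.

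**Figure D4:**
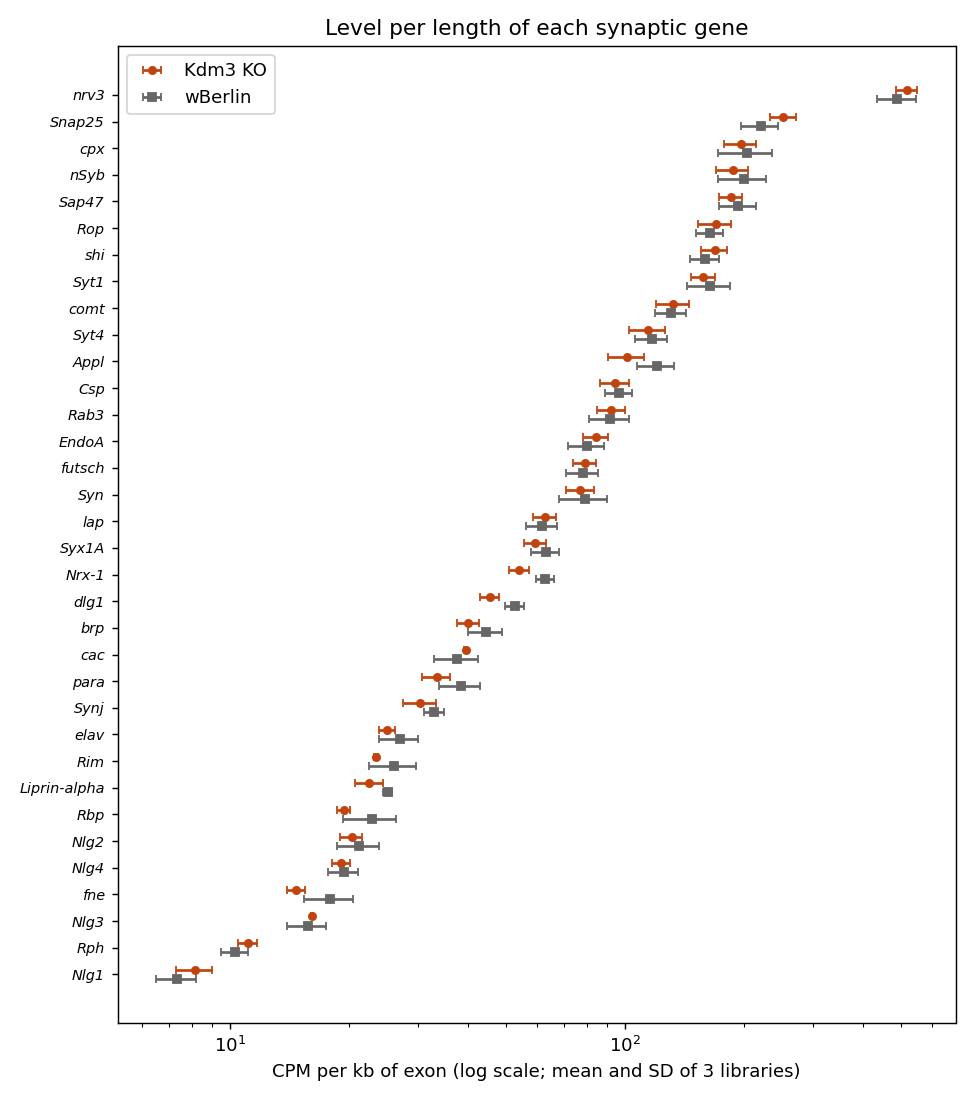
Level of each tested gene in CPM per kb of exon (x axis, log scale) in Kdm3 KO (circles) and wBerlin (squares), with the mean and SD of 3 libraries. Genes run by their mean over both genotypes from nrv3 at the top to Nlg1 at the bottom.

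Longer genes tended to have the more negative values. Across the 34 genes, which share the same 6 libraries and are not independent, Spearman's rho between the log2 fold change and the joined exon length was −0.49, and across all tested genes −0.22. With the gene's span in the genome, introns included, rho was −0.15 across the 34 and −0.22 across all tested genes. The part of length in these values was not tested.

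The remaining genes of these pathways gave 1 lower and 0 higher genes of 103 tested by edgeR, near or below the 0.917% lower and 2.15% higher of all tested genes. Of the 106 further genes 105 were in the table, and Cadps and onecut, on chromosome 4, were at 0. The ID of Ca-beta, a calcium channel subunit gene, was not listed, and whether its reads stand under another ID was not tested. At an unadjusted p under 0.05 edgeR gave 7 as lower and 1 as higher, where 7.51% and 7.14% of all tested genes were. The median log2 fold change was −0.062. The called gene was Srpk79D (3L, 22273985 to 22284335), a kinase that keeps Bruchpilot from clumping in axons. It fell to 62.2, 61.5 and 64.8 CPM in Kdm3 KO replicates 1, 2 and 3, against 76.5, 91.4 and 93.5 CPM in wBerlin replicates 1, 2 and 3. All knockout libraries were below all controls (log2 fold change −0.47, SE 0.099, edgeR adjusted p = 0.0365). Its call ended without Kdm3 KO replicates 1, 2 or 3 (edgeR adjusted p 0.127, 0.0563 and 0.0958), without wBerlin replicates 2 or 3 (0.0812 and 0.0552) and with scaling to the other pathway genes (0.0904). Its log2 fold change stayed between −0.61 and −0.43 over the 16 alternatives. The gene begins just downstream of Csp on the same strand, and Csp itself stood at −0.031.

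The largest positive value among these further genes was that of stj (2R, 13805794 to 13819571), an auxiliary subunit that brings the cac channel to the synapse. It was at 384, 300 and 343 CPM in Kdm3 KO and at 274, 232 and 225 CPM in wBerlin. All knockout libraries were above all controls, but the test was not passed (log2 fold change 0.49, interval 0.21 to 0.77, edgeR adjusted p = 0.0752). It was called in 9 of 16 alternatives, among them the fits without Kdm3 KO replicate 2 and without wBerlin replicate 1 (edgeR adjusted p 0.0246 and 0.0387), with an adjusted p from 0.00183 to 0.236 over all 16.

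By list, the further fusion genes (19 tested) had a median of 0.019, the endocytosis genes (22) −0.028, the active zone genes (14) −0.099, the adhesion genes (21) −0.11 and the excitability genes (27) −0.14, against 0.036 over all tested genes. The adhesion and excitability lists had 19 of 21 and 23 of 27 negative values, where 43.6% of all tested genes were negative. Each list had 6 genes whose knockout libraries all lay below the controls, where 9.33% of all tested genes did. Among them were Dscam2 and sdk, adhesion proteins of the immunoglobulin superfamily, the potassium channel gene SK, and Rbp9, the third ELAV family member, at −0.31, −0.25, −0.33 and −0.25. None of these 4 passed edgeR's test (adjusted p 0.192, 0.205, 0.189 and 0.408). In the alternatives Dscam2 was called without wBerlin replicate 3 (edgeR adjusted p = 0.0441), and sdk with upper quartile scaling and with a filter of a mean of 5 CPM (edgeR adjusted p 0.0481 and 0.0367).

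**Figure D5:**
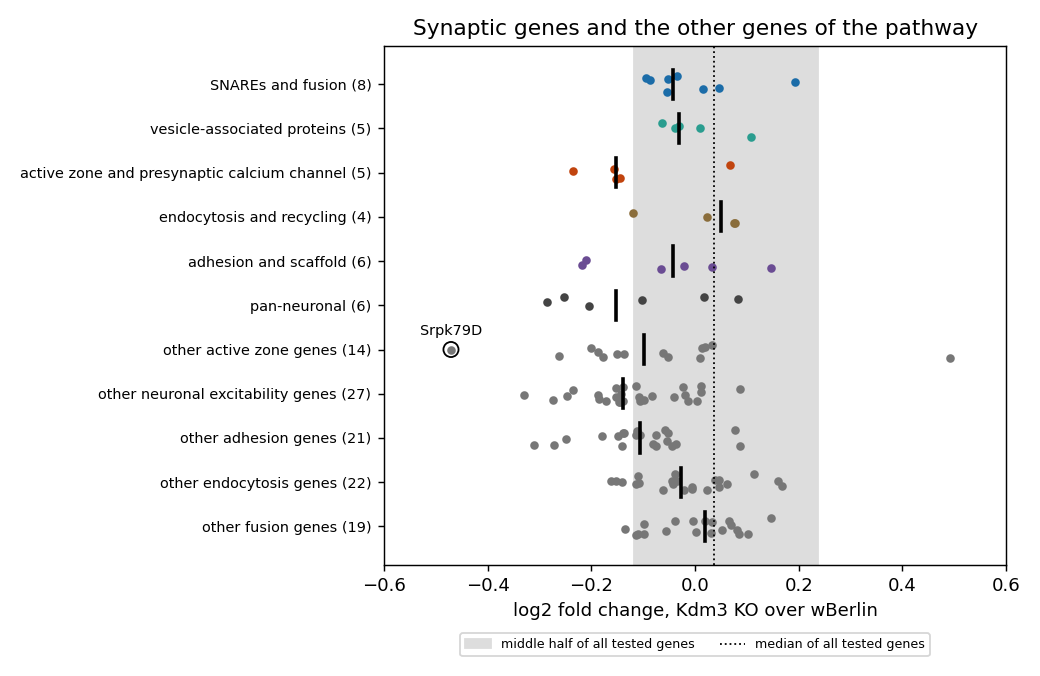
Log2 fold change (x axis, Kdm3 KO over wBerlin) of each tested gene by role, with the synaptic genes in colour, the further pathway genes in grey, list medians as bars and the number tested in parentheses; the grey band runs from the lower to the upper quartile of all tested genes, −0.12 to 0.24. The ringed gene, Srpk79D, is the only one that passed the test.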

How the data were processed

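Raw read counts per gene were deposited by the authors for 6 head libraries. Per the submitters' processing notes STAR, SAMtools, HTSeq, DESeq2 and BDGP6 were used; versions, settings and use of strand are not stated there, so genes that overlap are uncertain. Totals were 19850981 to 28237382 counts per library; intervals and floors cover counting error only where stated. Replicates of 1 genotype differed far beyond sampling noise (chi-square over degrees of freedom 16.8 to 65.8), so each counts as a library of its own.

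Symbols, positions and exon lengths came from the Ensembl release of BDGP6.54, which holds 17626 of 17753 gene IDs. The main test was edgeR 4.0.16 in R 4.3.3 (TMM, filterByExpr, quasi-likelihood, genotype as the only term, two-sided, Benjamini-Hochberg over 14069 genes). A run of this fit on simulated counts used larger changes than those of the members and no shift of a library shared by genes. It says nothing about the small differences reported here. Fold change intervals are the log2 fold change ± the t quantile times its SE. DESeq2 1.42.0 and limma voom 3.58.1 were alternatives. The first principal component (44.1%) set Kdm3 KO replicate 2 apart.

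Members, lists and the doubted libraries were chosen with earlier results of these data known. Named genes were all members, called pathway genes and Kdm3; stj, Dscam2, sdk, SK and Rbp9 were named after their values were seen.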

Additional observations from a re-analysis of the deposited data

How the results depend on the processing

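Over 16 alternatives (544 values for the 34 genes) 1 call was made, that of fne without wBerlin replicate 3, so 0 to 1 members were lower and 0 higher with a library left out. The sign of uncalled values turned in 52. With both wBerlin replicate 1 and Kdm3 KO replicate 2 left out (4 libraries) it did for nSyb (0.092), Syx1A (0.025), cpx (0.15), Syt1 (0.11), Syt4 (0.12), Syn (0.15), Sap47 (0.077), Csp (0.10), Synj (0.002), Nlg1 (−0.008), Nlg2 (0.080), Nlg4 (0.096) and elav (0.031), and the members' median moved to 0.094, against −0.14 to 0.015 with 1 library left out. With no filter on low counts it did for Rop (−0.013), comt (−0.045), Rab3 (−0.049), lap (−0.036), Nlg3 (−0.025) and futsch (−0.041). With scaling to the other pathway genes, an alternative chosen after seeing the data, it did for Syt4 (0.013), Syn (0.010), Csp (0.016) and Nlg4 (0.028). With 1 library left out it did for Rop (−0.063 to 0.13), cpx (−0.19 to 0.023), comt (−0.10 to 0.097), Syt1 (−0.16 to 0.007), Syt4 (−0.12 to 0.052), Syn (−0.15 to 0.032), Rab3 (−0.085 to 0.080), Csp (−0.12 to 0.045), cac (−0.051 to 0.12), shi (−0.026 to 0.14), lap (−0.064 to 0.082), EndoA (−0.036 to 0.14), Nlg3 (−0.075 to 0.076), Nlg4 (−0.11 to 0.028), futsch (−0.10 to 0.075) and nrv3 (−0.010 to 0.14). In the 4 libraries an upward shift was fixed by the choice, since the highest control and the lowest knockout for most of the 34 were left out. The cause of the sign changes was not tested.

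Genes called higher over the whole table numbered 303, and 514 by DESeq2, 473 with a filter of a mean of 5 CPM, 466 with scaling to the other pathway genes, 606 in the 4 libraries and 181 to 574 with 1 library left out. Genes called lower numbered 129, and 402 by DESeq2, 212 with upper quartile scaling, 266 with no filter, 274 with the filter of 5 CPM, 476 in the 4 libraries and 62 to 467 with 1 library left out. Of the further pathway genes 1 was higher (stj) by DESeq2, with upper quartile and total count scaling, the filter of 5 CPM, scaling to the pathway genes, the replicate block and in the 4 libraries, and 0 to 1 with 1 library left out. There were 2 lower (Srpk79D and sdk) with upper quartile scaling and with the filter of 5 CPM, 0 with scaling to the pathway genes, and 0 to 1 with 1 library left out.

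Replicate numbers were not taken as pairs, since the labels name no pairing. Deviations of same-numbered libraries correlated at 0.38, 0.20 and 0.01, and 4 of 6 libraries correlated best with their own number. Whether libraries of the same number were handled together is not stated. With the replicate block 417 genes were higher and 362 lower over the whole table, against 303 and 129 without it. In that fit 1 pathway gene was higher and 1 lower, and 0 members were called.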
